A study of Mus musculus with 4 samples.

Results

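The regions described are the transfer RNA (tRNA) genes of the mouse genome in haematopoietic stem cells, examined for CUT&Tag peaks of PPP2CA. All entries of biotype tRNA in the RefSeq gene table of GRCm38.p6 on chromosomes 1 to 19, X and Y were taken, each as a window of the gene with 1 kb on each side. The table listed 408 such genes. Of these, 403 were used, among 49603 gene entries of all kinds, and 5 were left out because the table placed them below 3 Mb, where the mouse assembly holds no sequence. The choice of members used no measured value. The study held 4 libraries of primary haematopoietic stem cells from mouse bone marrow, all with the wild-type Ppp2ca gene. An antibody to PPP2CA was used for 2 of them, and IgG, a control antibody of no defined target, for the other 2. No library of a Ppp2ca mutant, of another cell type or of another chromatin protein was analysed here, and the labels give no age, sex or strain of the mice. They do not say whether libraries of the same antibody came from separate animals.

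PPP2CA is a catalytic subunit of protein phosphatase 2A, a serine and threonine phosphatase that works in complexes with scaffold and regulatory subunits. In CUT&Tag an antibody brings a transposase to chromatin, the transposase cuts and tags the DNA nearby, and sites with many tagged fragments are called as peaks. tRNA genes are very short and are transcribed by RNA polymerase III. Their promoter lies within the transcribed sequence, as an A box and a B box that are bound by TFIIIC. TFIIIC then places TFIIIB upstream of the gene, and TFIIIB recruits the polymerase. Haematopoietic stem cells are known for a low rate of protein synthesis, for which tRNAs are the adaptors. Mammalian genomes hold many near-identical copies of each tRNA, some scattered and some in dense clusters, and only part of the copies are active in a given cell type.

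The sequences of 5 tRNA genes could be read in full, because these genes lie inside promoter or microRNA hairpin entries of the RefSeq tables (GRCm38.p6). Only genes with a match to the B box core on a single strand were kept. Of the genes shown, 3 held PPP2CA peaks and 2 did not. Capitals mark the anticodon and then the core of the B box, searched as GTTCNANNC. The gene strand was taken as the strand on which this motif was found.
n-TTagt9: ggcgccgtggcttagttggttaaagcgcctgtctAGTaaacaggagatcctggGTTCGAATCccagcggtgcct
n-TRtcg5: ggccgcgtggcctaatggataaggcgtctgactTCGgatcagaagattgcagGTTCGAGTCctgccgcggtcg
n-TVcac9: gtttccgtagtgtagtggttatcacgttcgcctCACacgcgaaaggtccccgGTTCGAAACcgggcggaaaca
n-TAagc16: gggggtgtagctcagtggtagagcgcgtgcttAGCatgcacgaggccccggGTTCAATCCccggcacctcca
n-TItat14: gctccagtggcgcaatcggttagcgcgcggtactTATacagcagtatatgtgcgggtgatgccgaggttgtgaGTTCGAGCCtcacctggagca
The threonine gene n-TTagt9 (chr7:35234770-35234843, minus strand) had peaks whose highest point held 17 and 25 fragments in PPP2CA libraries 1 and 2. At the arginine gene n-TRtcg5 (chr7:79466419-79466491, plus strand) the summits held 37 and 31 fragments. At the valine gene n-TVcac9 (chr13:23446142-23446214, minus strand) they held 26 and 25. The alanine gene n-TAagc16 (chr13:21222586-21222657, plus strand) and the isoleucine gene n-TItat14 (chr13:21896938-21897031, minus strand) had no PPP2CA peak. n-TItat14 is 94 bases long, against 72 to 74 for the other genes shown, and lies within the hairpin entry of Mir1983. Since only genes with a match to the B box core were kept, its presence in genes with and without peaks was set by the choice. The same letters occurred on either strand in 3063 of 32851 promoter entries of 300 bases, or 9.32%, so a match alone is a description of sequence.

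PPP2CA peaks lay at 138 of the 403 tRNA windows in both PPP2CA libraries, which is 34.2% (95% exact binomial interval 29.6 to 39.1). These 138 genes are called marked below. The peaks of the PPP2CA lists did not have to overlap each other. At n-TTagt5, n-TMcat8 and n-TFgaa5, for example, the best peaks of the lists did not. A further 25 genes (6.2%) had a peak in 1 PPP2CA library, and 240 (59.6%) had none. PPP2CA library 1 had a peak at 151 windows and PPP2CA library 2 at 150. Neither IgG list had a peak at any of the 403 windows. Taken as 3 counts of the total, this allows a share of up to 0.744% in each, and the upper end of the exact interval is 0.911%. Over all windows of the same length tiled along the genome, 1.34% held a peak in both PPP2CA lists and 0.0761% held a peak in either IgG list. The intervals cover counting error only and treat windows as independent, which neighbouring tRNA genes that share a peak are not.

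The IgG libraries were much shallower. The lowest local background in a list, a measure of its depth, was 0.784 and 0.8 fragments in PPP2CA libraries 1 and 2, and 0.0839 and 0.0833 in IgG libraries 1 and 2. By this measure the depth differed 9.34 to 9.61 times. The lists held 16811 and 17686 PPP2CA peaks, and 561 and 310 IgG peaks. Scaled down to the depth of IgG library 1, the median tRNA locus would have held 3.64 fragments in PPP2CA library 1 and 3.51 in PPP2CA library 2. The lowest IgG summit held 3 fragments. At that depth 49 of the 86 marked loci of PPP2CA library 1, and 52 of those of PPP2CA library 2, would have reached 3 fragments. At the other loci an equal IgG signal would have been below the lowest called summit, so its absence was not detectable at this depth.

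Where both PPP2CA lists had a summit, no spread beyond sampling noise was found. Such places were chosen for being called in both lists, which favours like values, so the test cannot show that the libraries agree. At 44 places in tRNA windows where the lists had summits within 100 bp, the chi-square of the fragment counts over its degrees of freedom was 0.794 (chi-square test, one-sided p = 0.834). It was 0.783 over 6930 such places in the whole lists. Places called in only 1 list did not enter this comparison. The 25 tRNA genes with a peak in 1 PPP2CA library were counted by window, and a window can miss a nearby peak of the other list. The PPP2CA libraries were counted as 1 sample, and a peak in both is not evidence from separate animals. Over all protein-coding genes, 40.1% had a peak at a start or end in both PPP2CA lists. Of 9 haematopoietic stem cell markers, Kit and Mecom had a peak at a gene boundary in both PPP2CA lists, and 7, among them Cd34 and Procr, did not. Of the markers of other cells, 0 of 4 lymphoid, 2 of 4 erythroid (Epor and Klf1), 0 of 5 granulocyte or monocyte and 0 of 4 stromal or endothelial genes had one. A peak is not a measure of expression.

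tRNA genes held PPP2CA peaks more often than the other small RNA genes did. Windows made in the same way were marked for 5.92% of 997 genes of small nuclear RNAs, a class that includes the RNAs of splicing. How many entries of each class are active in these cells was not tested. The share was 5.34% for 1330 genes of small nucleolar RNAs, which guide the modification of other RNAs. It was 8.71% for 1228 microRNA genes. At the starts and ends of protein-coding genes it was 21.3%, and at those of long non-coding RNA genes 7.16%. The interval for tRNA genes lay above each of these values. The shares at starts and ends count each boundary as its own window. Counted per gene, 40.1% of 21779 protein-coding genes had a peak at a start or end in both PPP2CA lists. That value lay above the tRNA interval, so tRNA genes were not marked more often than protein-coding genes taken whole. IgG peaks lay at 2.11% of the small nuclear RNA genes, so the IgG lists did hold peaks at small RNA genes of another class.

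Nearness to a protein-coding gene went with a higher share, and tRNA genes lay above the rest of the genome both near such genes and far from them. Of 106 tRNA genes with a protein-coding gene boundary within 5 kb, 67 were marked, or 63.2% (53.3 to 72.4). Of the 297 genes with no such boundary within 5 kb, 71 were marked, or 23.9% (19.2 to 29.2). Genome tiles split in the same way were marked at 7.76% and 0.436%. Far from protein-coding genes, 3.79% of small nuclear RNA genes, 0.472% of small nucleolar RNA genes and 2.1% of microRNA genes were marked. Close to them the shares of these classes were 17.8%, 24.4% and 21.5%. tRNA genes were above every one of these classes on both sides of the 5 kb limit, with intervals that did not overlap.

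**Figure D1:**
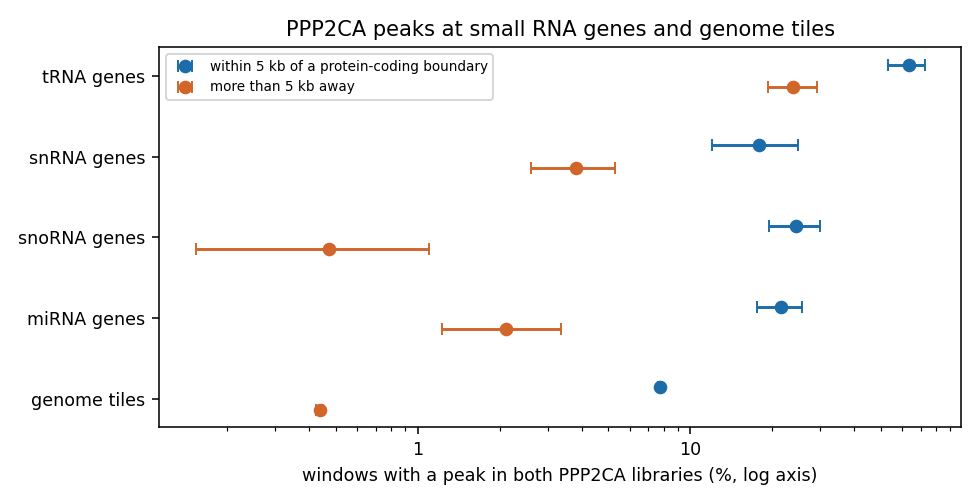
Share of windows with a peak in both PPP2CA libraries (percent, log axis) for 4 classes of small RNA genes and for genome tiles, within 5 kb of a protein-coding gene boundary (blue) and farther away (orange); bars are 95% exact binomial intervals. tRNA genes lie highest on both sides, at 63.2% and 23.9%.

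The share fell with distance in steps. It was 83.7% of 49 tRNA genes within 1 kb of a protein-coding boundary and 45.6% of 57 at 1 to 5 kb. It was 40.5% of 79 at 5 to 10 kb and 26.0% of 146 at 10 to 50 kb. Beyond 50 kb only 1 of 72 was marked, or 1.39%. Genome tiles in the same bands were marked at 19.9%, 3.76%, 1.17%, 0.722% and 0.15%. In the 4 bands up to 50 kb the intervals of tRNA genes and tiles did not overlap. Beyond 50 kb the interval for tRNA genes ran from 0.0352% to 7.5% and held the value of the tiles. Of the 72 genes beyond 50 kb, 42 belonged to a single cluster of cysteine tRNA genes described below, and of the other 30 the 1 marked gene was the glutamate gene n-TEttc7 (chr7:58399315-58399386), which lay 256756 bp from Atp10a. Its summits held 18 and 20 fragments, at 169 and 110 bp from the gene.

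**Figure D2:**
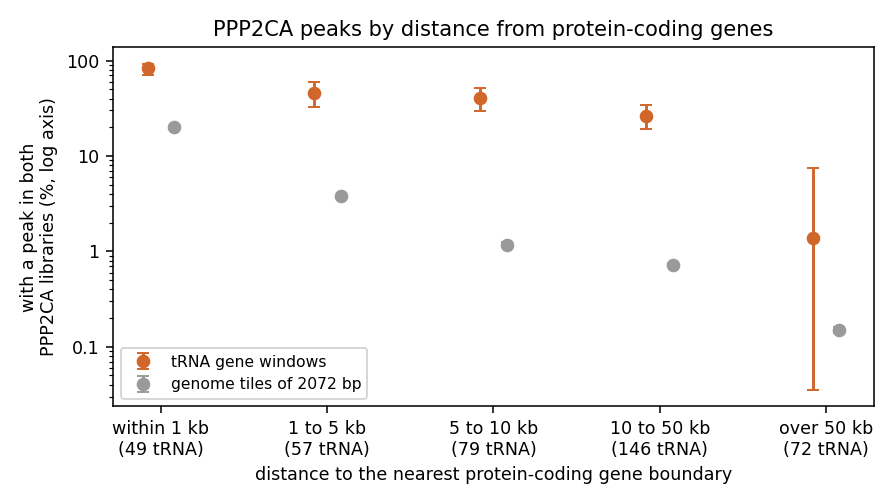
Share with a peak in both PPP2CA libraries (percent, log axis) by distance to the nearest protein-coding gene boundary, for tRNA gene windows (orange) and genome tiles of the same length (grey); bars are 95% exact binomial intervals. Both fall with distance, and the tRNA genes lie above the tiles up to 50 kb.

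Starts and ends of protein-coding genes could be told apart where the promoter table gives a strand. Of 63 tRNA genes whose nearest boundary within 5 kb was a gene start, 43 were marked (68.3%). Of 30 whose nearest boundary was a gene end, 15 were marked, and the intervals overlapped (55.3 to 79.4 and 31.3 to 68.7). Long non-coding RNA genes were another neighbour. Among the 297 genes far from protein-coding boundaries, 34 of 95 with a long non-coding RNA boundary within 5 kb were marked (35.8%), against 37 of 202 without (18.3%), and the intervals of 26.2 to 46.3 and 13.2 to 24.4 did not overlap. Where no gene of any other kind lay within 5 kb, 34 of 133 tRNA genes were marked (25.6%, 18.4 to 33.8).

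tRNA genes with a tRNA gene beside them were marked more often when far from protein-coding genes. With another tRNA gene within 2 kb, 51 of 160 such genes were marked (31.9%), and without, 20 of 137 (14.6%). The intervals were 24.7 to 39.7 and 9.15 to 21.6. The windows of such neighbours overlap, so 1 peak can mark several genes, while the intervals treat genes as independent. This comparison was not made per locus, so it does not show that peaks are more frequent there. Neighbours can share a peak, and 81 of the 138 marked genes did so, in 29 loci. Merged by shared peaks, the marked genes formed 86 loci, with up to 5 marked genes in each. Every chromosome that holds a tRNA gene in the table, 19 in all, had at least 1 marked.

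The peaks at tRNA genes were of moderate height. The fold that the authors' caller gave each peak, its summit over the local background, had a median of 5.98 for the 100 peaks of PPP2CA library 1 in tRNA windows and of 6.03 for the 99 of PPP2CA library 2. The median of all other peaks was 5.61 and 5.53. The summits held a median of 30 and 32 fragments, against 18 and 18 elsewhere. The −log10 q had a median of 12.9 and 12.3, against 7.98 and 7.87. The peaks had a median width of 848 and 911 bp, against 665 and 691 bp. Ranked by −log10 q within each list, 64 of the 100 and 69 of the 99 lay in the upper 50% of the list, and 12 and 11 in the upper 10%. The best ranks were 263 and 281, so none was among the highest peaks of its list. The summits ranged from 6 to 261 fragments in PPP2CA library 1 and from 6 to 275 in PPP2CA library 2.

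Loci near protein-coding genes had the higher peaks. The best peak of the 48 marked loci within 5 kb of a protein-coding boundary held a median of 44.5 and 46.5 fragments, and that of the 38 loci farther away 24.0 and 25.5. No locus far from protein-coding genes exceeded 73 and 81 fragments. In 24 of the 48 near loci the summit lay closer to a tRNA gene than to the nearest protein-coding boundary in both libraries, in 19 it lay closer to the boundary in both, and in 5 the libraries differed. In all 38 far loci it lay closer to the tRNA gene, which the 5 kb limit and the windows of 1 kb made all but certain.

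**Figure D3:**
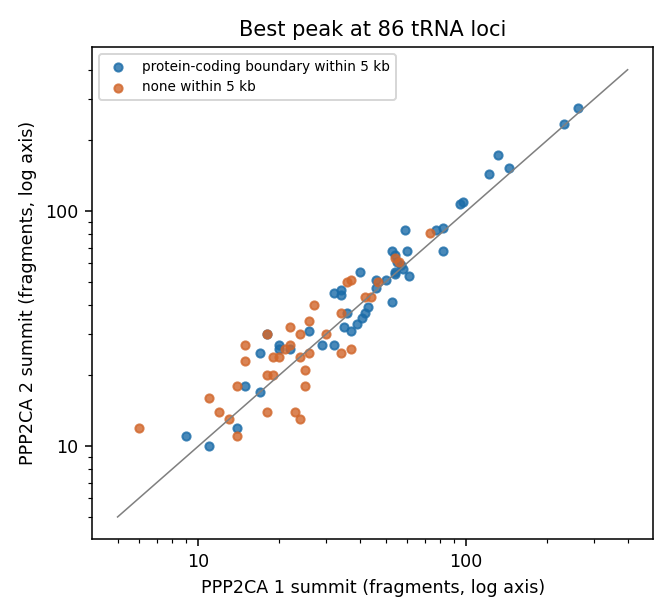
Fragments at the best summit of each marked tRNA locus in PPP2CA library 1 (horizontal, log axis) and PPP2CA library 2 (vertical, log axis), coloured by whether a protein-coding gene boundary lies within 5 kb. The line marks equal values; all loci above 81 fragments in both libraries are near a protein-coding gene.

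The 10 highest-ranked loci all lay within 1 kb of the start of a protein-coding gene. The first was the methionine gene n-TMcat9 (chr13:23530348-23530419), 625 bp from the histone gene H4c8, where the summits held 232 and 234 fragments at folds of 7.28 and 6.45. The summits were 154 and 129 bp from H4c8 and 779 and 930 bp from the tRNA gene. The valine gene n-TVcac7 (chr11:48818542-48818614) lay 343 bp from Trim41, which encodes a ubiquitin ligase, with 144 and 152 fragments. At the valine gene n-TVaac8 (chr3:30601270-30601342), 745 bp from the zinc finger gene Mynn, the summits held 131 and 173 fragments. The alanine gene n-TAagc9 (chr19:3576263-3576335) had the highest folds of all marked loci, 12.4 and 12.5, with 122 and 144 fragments. It lies 230 bp from Ppp6r3, which encodes a regulatory subunit of protein phosphatase 6.

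The fifth locus was one of tyrosine and alanine genes, n-TYgta9 and n-TAagc15 (chr5:30888083-30888587), 52 bp from Agbl5, with 95 and 107 fragments. The isoleucine gene n-TIaat16 (chr7:28372999-28373093) had the most fragments of any tRNA locus, 261 and 275, but folds of only 3.4 and 3.01, since its local background was high. It lies 318 bp from Plekhg2. At these loci of Agbl5 and Plekhg2 the summits were closer to the tRNA gene than to the protein-coding start in both libraries, and at the other 8 they were closer to the start.

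The glutamine gene n-TQctg9 (chr9:64738046-64738117) was next, 290 bp from Rab11a, a gene of endosome recycling, with 82 and 85 fragments. The arginine gene n-TRcct1 (chr6:38533931-38534003) lay 858 bp from Fmc1 and had 97 and 109 fragments. The glutamate gene n-TEttc4 (chr14:79481668-79481739) lay 400 bp from the splicing gene Wbp4, with 77 and 83 fragments. The aspartate gene n-TDgtc8 (chr10:93452978-93453049) lay 347 bp from Lta4h, an enzyme of leukotriene synthesis, with 60 and 68 fragments at folds of 10.5 and 11.5. The 10 loci held tRNA genes of 9 amino acids.

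The highest-ranked locus with no protein-coding boundary within 5 kb was a group of lysine, histidine, glycine and glutamate genes on chromosome 3 (n-TKctt16, n-THgtg8, n-TGtcc7 and n-TEctc13, chr3:96499512-96501518). Its nearest protein-coding gene, Hjv, was 23645 bp away. The summits held 73 and 81 fragments at folds of 5.99 and 6.06, and lay 222 and 93 bp from n-THgtg8. It ranked 14th among the 86 loci. Another isolated locus, of the genes n-TRacg3, n-TYgta1, n-TYgta2 and n-TAagc14 (chr3:19627959-19629067), had 44 and 43 fragments at folds of 9.82 and 9.18. It lay 15277 bp from Trim55, and in PPP2CA library 2 the summit fell within n-TYgta1. This second locus was named after its values were seen.

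Most summits lay beside the tRNA genes, and those on the genes were at or above the share that the gene takes of the window. The distance from a marked tRNA gene to the nearest summit had a median of 282 bp in PPP2CA library 1 and 332 bp in PPP2CA library 2. The summit fell inside the gene for 5 (3.62%) and 8 (5.8%) of the 138, where the gene takes up 3.47% of the length of the window. It fell between 100 and 250 bp for 43 (31.2%) and 24 (17.4%), a band that takes up 14.5% of the window. Between 250 and 500 bp it fell for 39 (28.3%) and 53 (38.4%), against 24.1% of the length. Between 500 and 1000 bp it fell for 26 (18.8%) and 32 (23.2%), against 48.3%. For 12 and 8 of the 138 the nearest summit lay more than 1000 bp away, outside the window, where the shares of length do not apply. Within 100 bp of the gene it fell for 13 in each library (9.42%), against 9.65%. The nearest of several summits was taken, which favours short distances. The bands from 100 to 500 bp held more summits than their share of the length, and the libraries differed in which of these held most.

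For the 20 marked genes that stand alone within 2 kb and far from protein-coding genes, the median distance was 242 and 248 bp. A summit lay within the gene for 3 and 1 of them. The median was 493 and 408 bp at marked small nuclear RNA genes, 867 and 801 bp at small nucleolar RNA genes, and 314 and 384 bp at microRNA genes. Peaks covered the body of the tRNA gene itself in both libraries for 84 of the 138 marked genes, and in neither library for 28. Summits within 250 bp in both libraries were found for 30 of the 138 (21.7%). The share within that distance was 43.0% in PPP2CA library 1 alone and 30.7% in PPP2CA library 2 alone, each over the genes with a peak in that library, since the rule for both libraries is stricter. How reads from near-identical tRNA copies were placed is not stated by the labels or file contents, and its part in where summits fell was not tested.

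**Figure D4:**
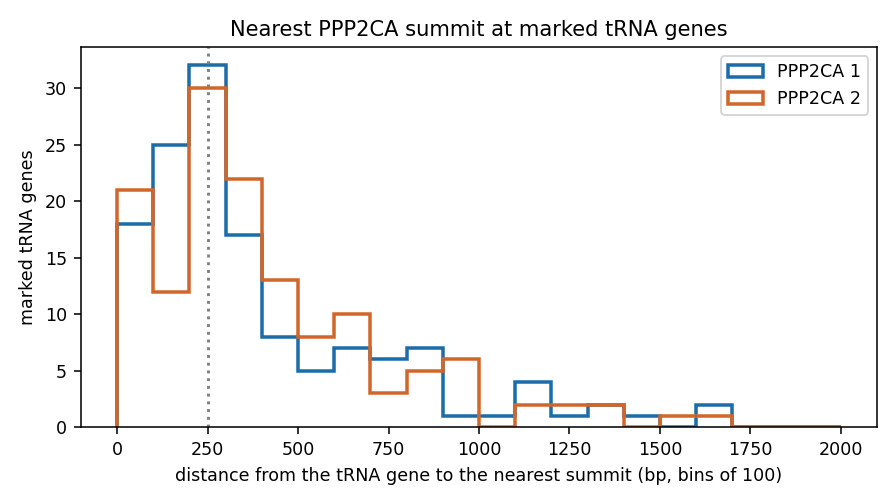
Distance in bp from each of the 138 marked tRNA genes to the nearest summit in PPP2CA library 1 (blue) and PPP2CA library 2 (orange), as the number of genes per bin of 100 bp; 0 means a summit inside the gene. The dotted line marks 250 bp, and the medians are 282 and 332 bp.

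Marked genes were spread over all amino acids. Each of the 20 amino acids had at least 1 marked tRNA gene, and 43 of the 48 anticodon families had one. Of the 44 families with 2 or more genes, 42 held marked and unmarked genes together. The exceptions were the valine family of anticodon TAC, with 3 of 3 genes marked, and the lysine family of anticodon TTT, with 0 of 2. The 4 families of a single gene had no marked gene. The selenocysteine tRNA gene was not found in the table by its symbol and was not analysed here.

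The highest shares were those of tyrosine (6 of 10, 60.0%), arginine (14 of 24, 58.3%), proline (9 of 16, 56.2%) and leucine (13 of 25, 52.0%). Tryptophan had 4 of 8 marked, glycine 13 of 28, aspartate 7 of 16, methionine 7 of 16, phenylalanine 3 of 7 and threonine 7 of 17. Histidine had 4 of 11, serine 8 of 22, valine 8 of 22, glutamate 7 of 20 and glutamine 5 of 16. The lowest shares were those of isoleucine (4 of 16), asparagine (3 of 13), lysine (6 of 26), alanine (6 of 33, 18.2%) and cysteine (4 of 57, 7.02%). The intervals of most amino acids overlapped widely: that of tyrosine ran from 26.2% to 87.8% and that of asparagine from 5.04% to 53.8%. The order among neighbours was therefore not resolved. The interval of cysteine, 1.95% to 17.0%, lay below those of tyrosine, arginine, proline, leucine, glycine, aspartate, methionine, threonine, serine and valine. Outside 1 cluster on chromosome 6, 4 of 9 cysteine genes were marked.

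The amino acids also differed in where their genes lie. Proline had 2 of its 16 genes within 5 kb of a protein-coding boundary, and 8 of the 14 others were marked. Tyrosine had 7 of 10 genes near, of which 3 were marked, and all 3 of its far genes were marked. Of the 29 alanine genes far from protein-coding genes 4 were marked, and of the 21 such lysine genes 2.

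The 13 clusters, each of 5 or more tRNA genes with gaps of at most 100 kb, ranged from no marked gene to most genes marked. Together they held 260 genes, of which 59 were marked (22.7%, 17.7 to 28.3), against 79 of the 143 genes outside clusters (55.2%, 46.7 to 63.6). Among genes far from protein-coding boundaries the shares were 37 of 209 (17.7%) within clusters and 34 of 88 (38.6%) outside. Among genes near them they were 22 of 51 and 45 of 55. Without the largest cluster, 27.8% of clustered genes were marked.

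The largest cluster, of 48 cysteine tRNA genes on chromosome 6 (chr6:48133937-48363603), had no marked gene, no gene with a peak in 1 library, and no PPP2CA peak of either list anywhere in its 230 kb. A count of 0 in 48 has an upper limit of 7.4% (exact interval). These genes are copies of 1 anticodon family, and the part that the placement of reads from near-identical copies has in this count, and in the low share of cysteine, was not tested. The second largest (chr13:23270421-23530419) ends beside the histone gene H4c8 and has 45 tRNA genes of 15 amino acids. In it 9 genes were marked and 6 had a peak in 1 library. The third (chr13:21848022-22050767) had 4 of 32 marked. On chromosome 1 (chr1:171033942-171111515) 9 of 25 were marked, in 4 loci. On chromosome 3 (chr3:96322074-96501518) 4 of 25 were marked, all in the locus beside n-THgtg8 described above.

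The other clusters were smaller. In the cluster on chromosome 11 near Ctc1, Aurkb, Per1 and Hes7 (chr11:69037003-69125248) 14 of 18 genes were marked and 3 more had a peak in 1 library. All 18 lie within 5 kb of a protein-coding boundary. The 14 marked genes formed 5 loci with low folds. Their best peaks had folds of 2.38 to 4.7 in PPP2CA library 1 and 2.33 to 3.58 in PPP2CA library 2. The medians over all 86 marked loci were 6.32 and 6.29. The 8 alanine genes clustered on chromosome X (chrX:136357602-136430436) had no peak of either list. In contrast, 5 of 8 genes in the cluster on chromosome 19 (chr19:12002236-12012338) were marked, although none of them lies within 5 kb of a protein-coding boundary. These 5 genes, n-TKctt30, n-TLtaa4, n-TRtct1, n-TVtac1 and n-TVtac2, shared a locus whose summits held 37 and 51 fragments, inside n-TVtac2 in PPP2CA library 1 and inside n-TVtac1 in PPP2CA library 2. The clusters on chromosomes 11, X and 19 were named after their values were seen.

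**Figure D5:**
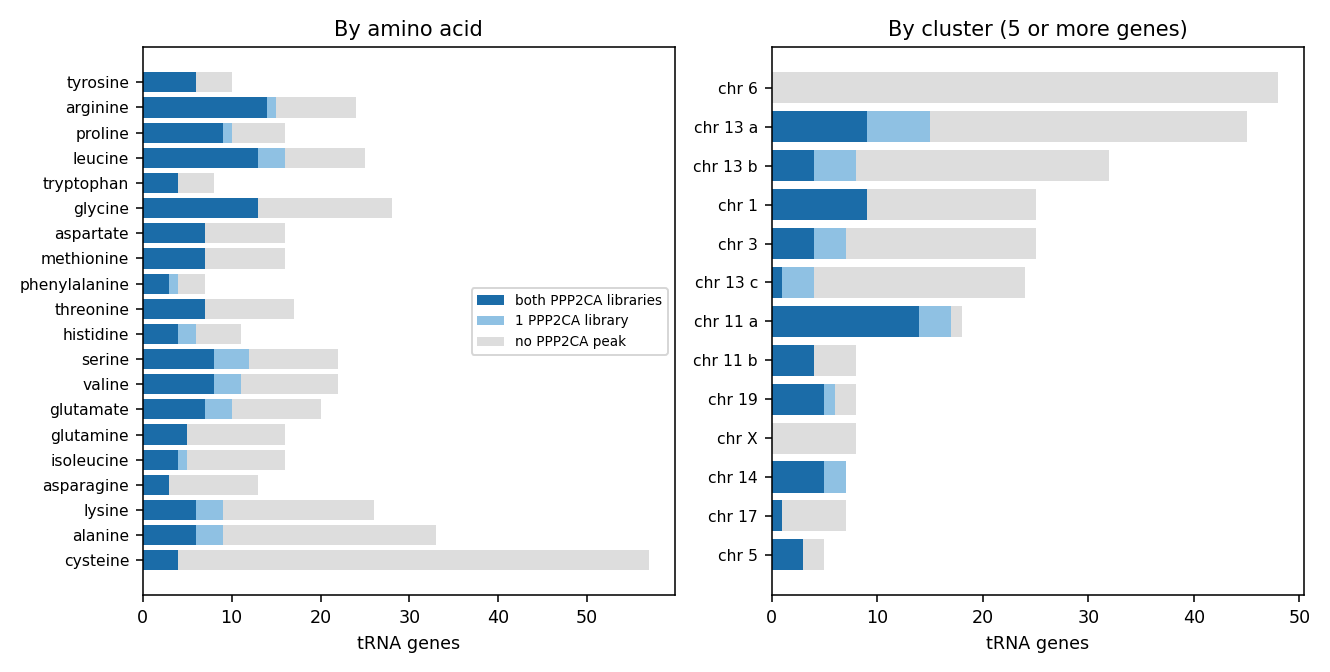
Number of tRNA genes with a peak in both PPP2CA libraries (dark blue), in 1 PPP2CA library (light blue) and in neither (grey), by amino acid (left) and by cluster, from the largest (right; letters tell apart clusters of the same chromosome). All 20 amino acids have marked genes; the clusters on chromosomes 6 and X have none.

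Genes with a peak in 1 library had low summits. The 13 found in PPP2CA library 1 had a median of 9 fragments, and the 12 in PPP2CA library 2 had 14. The best ranked was the proline gene n-TPtgg5 (chr14:51090647-51090718) in PPP2CA library 1, with 39 fragments at a fold of 7.4, 359 bp from Rnase4. This peak was also the one at the marked locus of n-TTtgt1 and n-TYgta10. There PPP2CA library 2 had a peak of 33 fragments, which ended at chr14:51089639, just short of the n-TPtgg5 window. The next genes in rank were n-TAagc17, n-TLtag2, n-TIaat5 and n-TSaga4, all in PPP2CA library 2. Their summits held 12, 14, 34 and 34 fragments, and n-TIaat5 and n-TSaga4 shared a peak.

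Genes that encode the tRNA transcription machinery often carried PPP2CA peaks at their own boundaries. Over all protein-coding genes, 39.4% had a peak in both PPP2CA lists and none in IgG at the start or end. Of 13 genes of polymerase III subunits 11 did, the exceptions being Polr3a, which encodes the largest subunit, and Crcp. The best ranked were Polr1d, a subunit shared with polymerase I, with 56 and 72 fragments, Polr3g with 36 and 45, and Polr3f with 27 and 23. Polr3e, with 29 and 27 fragments, has the leucine gene n-TLaag4 (chr7:120917517-120917598) at 180 bp from its boundary, so this peak is counted at both. Of 6 TFIIIC genes 5 did, led by Gtf3c2 with 71 and 76 fragments, Gtf3c1 with 30 and 22, and Gtf3c4 with 18 and 18. The sixth, Gtf3c6, had 839 and 1060 fragments but also an IgG peak.

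Of the 6 genes of TFIIIA, TFIIIB and the polymerase III repressor Maf1, 5 did, with Brf2 the exception. Brf1, a TFIIIB subunit, had 72 and 83 fragments, Maf1 79 and 98, and Bdp1 23 and 18. Of 31 genes of tRNA processing and export 22 did. The best ranked were Pop7, a subunit of the RNase P that trims the 5′ end, with 127 and 137 fragments, Tsen34 of the splicing endonuclease with 129 and 163, and the methyltransferase gene Nsun2 with 71 and 75. The interval for the polymerase subunits (54.6% to 98.1%) and that for the processing genes (52.0% to 85.8%) lay above the share of all protein-coding genes. Those of the smaller lists (35.9% to 99.6%) held it. Other sets of protein-coding genes were not compared, so a high share is not shown to be particular to these lists.

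Several other genes transcribed by polymerase III were marked too, where 1.34% of all genome tiles were. These genes were not split by nearness to protein-coding genes. Rn7sk, the RNA that holds back the elongation factor P-TEFb, had 46 and 55 fragments. The signal recognition particle RNA genes Rn7s1 and Rn7s2 had 74 and 67, and 53 and 49. Rpph1, the RNA of RNase P, had 33 and 36 fragments, and Rmrp, the RNA of RNase MRP, had 62 and 88 with 5 fragments in IgG library 2. Rny1, Bc1 and Vaultrc5 had peaks in both PPP2CA lists with 13 to 25 fragments, and Rny3 and Rnu6 had none. Of 51 entries for 5S ribosomal RNA genes 10 were marked, and of 18 entries listed as 5S pseudogenes 1 was, n-R5s41 with 72 and 74 fragments. Of these 69 entries 1 had an IgG peak, and 42 lie on chromosome 8. Neighbouring entries can be marked by the same peaks. The values were identical for n-R5s121 and n-R5s122, and for n-R5s143 and n-R5s144, so the count is not one of separate peaks. The part that the placement of reads from near-identical copies has in it was not tested.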

How the data were processed

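Each library had its own peak file, which the authors deposited in the narrowPeak layout. Per the submitters' processing notes, the tools were BWA, Trimmomatic, MACS2, ChIPseeker, HOMER and deepTools, with no versions or roles, and the builds mm10 and GRCm38. The use of IgG as a control in calling, and the placement of reads with several equal matches, are not given in the sources used here. For every peak the authors deposited 4 values: a fold (the ratio of summit to local background), a −log10 p, a −log10 q, and a score that follows the −log10 q. Ranks by these values were used only within each list, while fragments and backgrounds computed from them were also compared between lists.

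The fragments and the background at each summit were computed back from fold and −log10 p, as (fragments + 1) / (background + 1) and a Poisson tail. This gave whole numbers for 100% of peaks within a relative tolerance of 0.0001. The script was tested on simulated data. Library read totals were not used.

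A window held a peak where they shared at least 1 bp. Entries placed below 3 Mb (340, of which 5 tRNA genes) were left out. Genome tiles were 1284363 non-overlapping stretches of 2072 bp, the median window length. Exact Clopper-Pearson intervals are given at 95%. They cover counting error only and treat windows as independent, which neighbours that share a peak are not. PCR copies of a fragment are not separate molecules, which bears on the fragment counts. Nearest protein-coding boundaries came from the gene table of GRCm38.p6, which is the build of the lists. No test between PPP2CA and IgG was made, since the PPP2CA libraries counted as 1 sample. A count model was not used.

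The text names the 10 best loci by the worse of their ranks in the PPP2CA lists, the best locus far from protein-coding genes, the 5 largest clusters, all amino acids, the 5 best genes with a peak in 1 library, and the 3 best genes of each pathway list. The members and lists were chosen with earlier results of these data known. Alternatives for the window, overlap, thresholds, distances and libraries were tried. Python 3.11.15, numpy 2.4.6, pandas 2.3.3 and scipy 1.17.1 were used.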

Additional observations from a re-analysis of the deposited data

How the results depend on the processing

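Of 93 alternative values 72 stayed close to the value reported and 21 moved away from it. Some of these values repeat others or could not move, so the tally is not a measure of robustness. No tRNA window held an IgG peak, so leaving out an IgG library changed nothing. The demand for no IgG peak gave the same shares as without it. Close meant within the 95% interval for a share, within 1 SD between libraries for the median fold, and on the same side of the test's threshold for the chi-square. The median fold of peaks in tRNA windows, 6.0 as the mean of the libraries, was 5.96 when the summit had to lie in the window and 6.48 for a −log10 q of at least 5. The share of tRNA windows with peaks in both PPP2CA libraries, with or without the demand for no IgG peak, was 28.3% with 200 bp on each side, 28.5% for peaks with a −log10 q of at least 5, and 26.6% for summits of at least 20 fragments. Near protein-coding genes it was 52.8% with 200 bp on each side and 83.7% when near meant 1 kb. Far from them it was 16.2% for summits of at least 20 fragments and 17.9% when near meant 10 kb. In clusters it was 16.2% with 200 bp on each side, 17.7% when the summit had to lie in the window and 17.7% for a −log10 q of at least 5. Outside clusters it was 39.9% for summits of at least 20 fragments. The share of marked genes with the nearest summit within 250 bp in both libraries was 32.6% with genes that overlap or share a peak counted once, 6.52% for 100 bp and 63.8% for 500 bp, and with 1 library left out it ran from 30.7% (without PPP2CA library 1) to 43.0% (without PPP2CA library 2). Alternatives chosen after seeing the data left out the largest cluster and gave 38.9% of all tRNA genes, 28.5% of those far from protein-coding genes and 27.8% of those in clusters. No paired analysis was possible because no result comes from a test between the PPP2CA and IgG groups. Depth limits the IgG lists, whose median summit held 4 fragments.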
